A study of Mus musculus with 15 samples.

Results

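The genes described here are 9 genes of cytosolic sulfotransferases, Sult1a1, Sult1b1, Sult1c2, Sult1d1, Sult1e1, Sult2a3, Sult2a5, Sult2a8 and Sult5a1, together with Papss2, which makes the sulfate donor of these enzymes. They were taken by gene name, and they are 10 of the 21702 genes in the count table of the series. The table holds 21 genes whose name begins with Sult and a digit, so 12 of them are not among the members. All 10 members passed the filter on low counts and were tested among 12172 genes.

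Liver RNA of 15 mice was sequenced, and all mice were wild-type (WT) female C57BL/6 (C57BL/6N in the methods of the study) that had received an AAV8 vector in the tail vein. AAV8-null is the empty vector and served as the control. AAV8-p21 carries the cDNA of mouse p21 (Cdkn1a), an inhibitor of the cell cycle, behind the hepatocyte promoter TBG, so that only hepatocytes are meant to make it. The 5 groups of 3 mice were non-pregnant (NP) AAV8-null, AAV8-null at 8 dpc (days post coitum) and at 16 dpc, and AAV8-p21 at 8 dpc and at 16 dpc. They were adult virgins when injected, and the pregnant groups were mated afterwards. No NP group with AAV8-p21 was analysed here. The libraries of AAV8-p21 mice at 16 dpc carry the numbers 1, 3 and 4 in the table and are named by these numbers.

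Sulfotransferases move a sulfo group from PAPS (3′-phosphoadenosine 5′-phosphosulfate) onto hormones, bile acids, catecholamines and drugs, which makes most of them more soluble and less active. Members of the SULT1 family prefer phenols, amines and estrogens, and members of the SULT2 family prefer hydroxysteroids and bile acids. Liver is a main site of this reaction, and several of the genes differ between female and male rodents. PAPS is made from ATP and sulfate by the bifunctional synthases Papss1 and Papss2, of which Papss2 is the main form in liver.

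Total counts per library lay between 12280709 and 17615185, and values are given as CPM, the counts scaled to the TMM-normalised library size. Cdkn1a lay between 347 and 1664 CPM in the 6 AAV8-p21 libraries and between 3.29 and 127 CPM in the 9 AAV8-null libraries, so that no library went against its virus label. The summed level of 6 hepatocyte markers lay between 75791 and 435538 CPM, so that hepatocyte RNA was abundant in each library. Albumin (Alb) took between 7.90% and 12.9% of the counts in NP and 8 dpc libraries and between 20.5% and 27.8% at 16 dpc. In whole-tissue RNA, fewer cells of a type and less RNA per cell cannot be told apart. Nothing in the labels says whether mice shared a litter or cage, and the p-values measure the spread between these mice.

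The Sult2a genes lie in a cluster of 8 similar copies on chromosome 7 of GRCm38 (mm10), and the reads were counted only where they mapped to 1 place. The first 60 coding bases of 6 copies are shown because they let a reader see how little separates these genes. Capitals mark the 21 positions at which the copies Sult2a1 to Sult2a7 differ, and the sequences were read from GENCODE M21 transcripts.
Sult2a2: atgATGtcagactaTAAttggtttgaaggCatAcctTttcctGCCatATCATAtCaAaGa
Sult2a5: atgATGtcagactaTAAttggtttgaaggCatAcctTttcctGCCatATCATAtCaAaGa
Sult2a4: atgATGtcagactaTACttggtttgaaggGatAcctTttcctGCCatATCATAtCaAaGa
Sult2a3: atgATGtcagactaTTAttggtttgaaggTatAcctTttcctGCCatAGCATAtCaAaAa
Sult2a6: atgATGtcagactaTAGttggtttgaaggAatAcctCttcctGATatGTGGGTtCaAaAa
Sult2a8: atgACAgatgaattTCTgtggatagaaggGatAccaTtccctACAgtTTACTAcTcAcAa
Over these 60 bases Sult2a5 did not differ from Sult2a2 at any position, Sult2a4 differed from Sult2a2 at 2 positions, Sult2a3 at 4, Sult2a6 at 11 and Sult2a8 at 26. Over 855 aligned coding bases Sult2a5 shared 94.9% with Sult2a1 and 93.5% with Sult2a3. With Sult2a2, whose coding model is only 582 bases long, it shared 95.7% of 582 aligned bases. Sult2a8 was the most distant copy, with between 69.4% and 75.1% of bases shared with the others, the highest being with the short model of Sult2a2. The SULT1 members among themselves shared between 60.2% and 64.2%.

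Reads were 86 bases long, and 86-base windows of the transcripts were compared with all other genes of GENCODE M21. Of the windows of Sult2a5, 78.7% occurred in no other gene, and its shared windows lay mostly in Sult2a2 and Sult2a4. The share was 99.4% for Sult2a3 and 100% for Sult2a8, Sult1b1, Sult1c2, Sult1d1, Sult1e1, Sult5a1 and Papss2. For Sult1a1 it was 97.4%, with the other windows in the gene model Gm6939. The lowest share in the cluster was that of Sult2a2, a copy outside the members, with 58.7%. Counts of Sult2a5 are therefore partial by construction, while those of Sult2a3 and Sult2a8 are little affected by exact copies. Windows that differ by a single base can still be misplaced by an aligner, which was not tested.

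**Figure D1:**
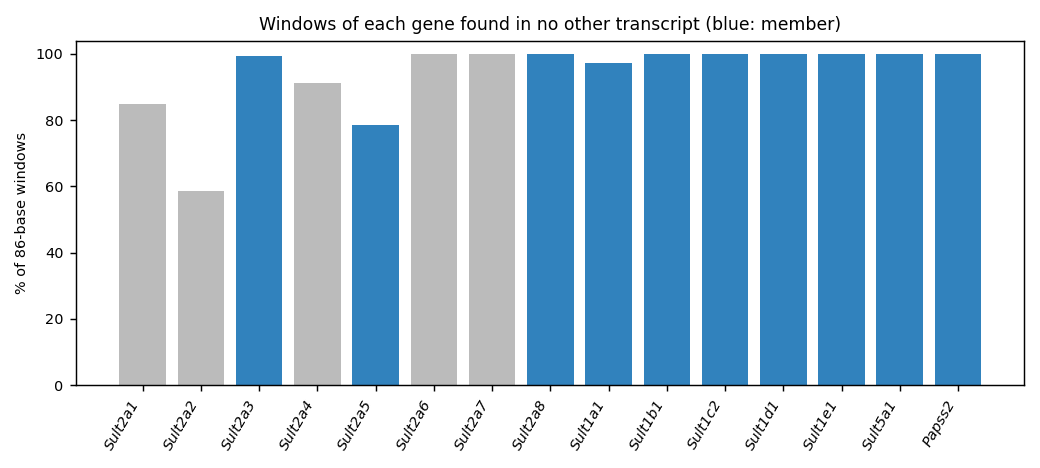
Share of the 86-base windows of each gene's transcripts (vertical axis, percent) that occur in no other gene of GENCODE M21, for the Sult2a cluster and the other members (members in blue). Sult2a5 stands at 78.7% and the non-member Sult2a2 at 58.7%, while all other members lie above 97%.

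In NP livers the order of the members per kilobase of exon was led by Sult1a1, a phenol sulfotransferase, with 288 ± 73.9 CPM per kb (SD, n = 3 mice). Sult2a8, which sulfates bile acids in mouse liver, followed with 132 ± 31.7 CPM per kb. Sult1d1, which acts on catecholamines such as dopamine, stood at 75.4 ± 21.98 CPM per kb and Papss2 at 59.8 ± 12.3 CPM per kb, which differ by less than their spread. Sult2a5 stood at 17.3 ± 9.30 CPM per kb, ahead of Sult1b1, which acts on thyroid hormones, at 8.18 ± 3.26 CPM per kb and Sult2a3 at 6.81 ± 7.02 CPM per kb. Sult1c2 at 3.46 ± 0.628 CPM per kb and Sult5a1 at 2.25 ± 1.59 CPM per kb were low. Sult1e1, the estrogen sulfotransferase, was lowest with 0.765 ± 0.509 CPM per kb. Neighbours from Sult2a5 down to Sult1e1 lay within each other's spread. Papss1, the other PAPS synthase, stood at 2.87 ± 1.76 CPM per kb.

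**Figure D2:**
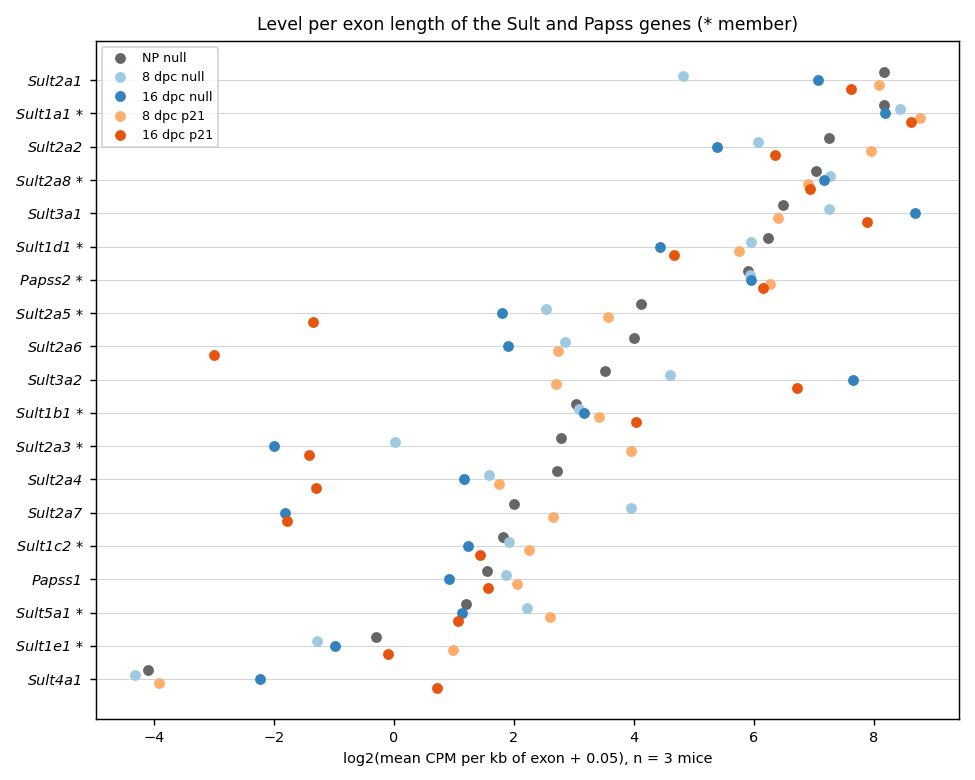
Mean level of the expressed Sult and Papss genes in each group (horizontal axis, log2 of CPM per kb of exon plus 0.05, 3 mice per group), ordered by the NP mean, with members marked by an asterisk. The 5 group means of Sult1a1, of Sult2a8 and of Papss2 lie close together, whereas those of Sult2a3 and Sult2a5 spread over several log2 units.

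The RNA of Sult1d1 was lower in late pregnancy with either virus. Sult1d1 (ENSMUSG00000029273) lies on the minus strand of chr5:87554645-87569027, between Sult1b1 at chr5:87513339-87538195 and Sult1e1 at chr5:87575969-87591594. In AAV8-null livers it measured 152, 156 and 248 CPM in NP livers, 175, 146 and 137 CPM at 8 dpc and 57.9, 55.4 and 45.2 CPM at 16 dpc. With AAV8-p21 the values were 147, 108 and 144 CPM at 8 dpc and 66.4, 70.4 and 50.2 CPM at 16 dpc. All 6 libraries at 16 dpc were below all 9 libraries of NP and 8 dpc livers. In AAV8-null livers the log2 fold change from NP to 16 dpc was −1.81 ± 0.23 (SE; adjusted p = 0.000396, edgeR quasi-likelihood test) and from 8 dpc to 16 dpc −1.53 ± 0.23 (adjusted p = 0.00129). Within AAV8-p21 mice it was −1.09 ± 0.22 from 8 dpc to 16 dpc (adjusted p = 0.0153). That call was lost without library 1 of the 8 dpc group or library 4 of the 16 dpc group, with adjusted p of 0.0716 and 0.0670. The change from NP to 8 dpc was −0.28 ± 0.22 and did not pass (adjusted p = 0.9998). Sult1d1 had the smallest spread between mice among the members, with an SD of 0.27 on the log2 scale within groups.

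The 250 bases before the RefSeq start of Sult1d1 (minus strand of chr5:87569007-87569256, GRCm38.p6) are shown because Sult1d1 is the member whose fall was called in the most comparisons. Capitals mark the match of a searched motif.
Sult1d1: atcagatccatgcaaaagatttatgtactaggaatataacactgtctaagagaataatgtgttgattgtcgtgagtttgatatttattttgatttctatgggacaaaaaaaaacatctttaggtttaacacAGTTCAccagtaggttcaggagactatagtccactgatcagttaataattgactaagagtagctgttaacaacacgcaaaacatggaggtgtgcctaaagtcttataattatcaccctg
The promoters of the members, from 250 bases before to 50 bases after the start, were searched on both strands for 5 motifs. These were the D-box TTA-N-GTAA, the E-box CACGTG, the nuclear receptor elements AGTTCA and AGGTCA and the STAT box TTC-NNN-GAA. All 10 members had a RefSeq promoter. AGTTCA was found for 5 of them (Sult1b1, Sult1d1, Sult2a3, Sult2a5 and Sult2a8) and in 13.99% of all 32851 promoters of the table. AGGTCA was found for 4 (Sult1b1, Sult1e1, Sult2a8 and Papss2) and in 16.3% of all promoters. The D-box was found for Sult1a1 alone and in 2.32% of all promoters, and the E-box and the STAT box for no member and in 7.15% and 8.30% of all promoters. Sult1b1, Sult2a8 and Papss2 have more than 1 promoter in the table, so they had more bases to match. The matches describe the letters of these windows and were not tied to any change of RNA.

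Sult2a3 was close to the limit of detection at 16 dpc. It is a hydroxysteroid sulfotransferase gene (ENSMUSG00000074375, minus strand of chr7:14067446-14123044). It measured 15.2, 3.17 and 2.45 CPM in NP livers, 1.05, 1.91 and 0 CPM in AAV8-null livers at 8 dpc and 0.178, 0.250 and 0.178 CPM at 16 dpc. With AAV8-p21 the values were 22.7, 9.59 and 14.6 CPM at 8 dpc and 0.341, 0.582 and 0.0728 CPM at 16 dpc. The NP group and the 8 dpc AAV8-p21 group lay above all 6 libraries of 16 dpc livers. The 3 AAV8-null libraries at 16 dpc held 7 counts together and the 3 NP libraries 306 counts, a 33.4-fold difference (95% exact counting interval 16 to 83.7). NP library 1 held 219 of the 306 counts, and without it, a choice made after the values were seen, the difference was 13.9-fold (6.49 to 35.7). The fitted log2 fold change from NP to 16 dpc was −5.03 ± 1.09 with AAV8-null (adjusted p = 0.0134), and −4.35 ± 0.99 from NP to 16 dpc with AAV8-p21 (adjusted p = 0.0250). From 8 dpc to 16 dpc with AAV8-p21 it was −5.53 ± 0.997 (adjusted p = 0.00707). With AAV8-null, Sult2a3 did not pass from NP to 8 dpc or from 8 dpc to 16 dpc, and its values at 8 dpc and 16 dpc overlapped. Without library 2 or without library 3 of the 16 dpc AAV8-null group the first call was lost (adjusted p = 0.0526 and 0.0557), and the second was lost without NP library 1 or without any 1 of the 3 AAV8-p21 libraries at 16 dpc (adjusted p up to 0.0888). limma voom with sample weights made neither call (adjusted p = 0.134 and 0.0622), and the fit of the compared groups alone did not make the second (adjusted p = 0.0511). Counting intervals cover counting error only, and fitted fold changes of genes with so few counts depend on the prior count of the fit.

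Sult2a5 was low at 16 dpc and lowest with AAV8-p21. It has the lowest coordinates of the 8 copies (ENSMUSG00000078799, plus strand of chr7:13623967-13670807). It measured 29.4, 12.2 and 12.9 CPM in NP livers, 9.08, 8.87 and 0 CPM in AAV8-null livers at 8 dpc and 5.79, 3.67 and 1.33 CPM at 16 dpc. The AAV8-p21 values were 27.3, 5.42 and 4.34 CPM at 8 dpc and 0.341, 0.727 and 0 CPM at 16 dpc. All 6 libraries at 16 dpc were below the NP libraries, and the AAV8-p21 libraries at 16 dpc were below the AAV8-null libraries of that stage. From NP with AAV8-null to 16 dpc with AAV8-p21, where virus and stage changed at once, the log2 fold change was −5.63 ± 1.34 (adjusted p = 0.0299). This call was lost without any 1 of the 6 libraries compared (adjusted p up to 0.108) and with limma voom (adjusted p = 0.111). From 8 dpc to 16 dpc with AAV8-p21 it was −5.09 ± 1.33 and did not pass (adjusted p = 0.0524). This fall was called in 7 of 21 alternatives, among them DESeq2's Wald test (adjusted p = 0.0130), no filter on low counts (0.0343) and the compared groups alone (0.0270), and the adjusted p ranged from 0.00814 to 0.243. The change from NP to 16 dpc with AAV8-null was −2.33 ± 1.04 (adjusted p = 0.215). AAV8-p21 against AAV8-null at 16 dpc gave −3.30 ± 1.38 (adjusted p = 0.472).

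The 90-base stretches below come from the promoters of Sult2a3, Sult2a4, Sult2a5 and Sult2a6 and are shown because these copies have similar upstream letters. Capitals mark the match of AGTTCA, which reads TGAACT on the strand printed. They lie at chr7:14123154-14123243 for Sult2a3, chr7:13989749-13989838 for Sult2a4, chr7:13623795-13623884 for Sult2a5 and chr7:14254997-14255086 for Sult2a6, each on the strand of its gene (RefSeq, GRCm38.p6).
Sult2a3: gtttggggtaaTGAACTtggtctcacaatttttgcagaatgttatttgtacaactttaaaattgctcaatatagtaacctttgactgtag
Sult2a4: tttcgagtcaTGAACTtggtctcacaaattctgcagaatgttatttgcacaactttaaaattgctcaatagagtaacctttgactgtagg
Sult2a5: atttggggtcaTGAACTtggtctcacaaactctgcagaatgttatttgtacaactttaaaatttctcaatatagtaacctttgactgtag
Sult2a6: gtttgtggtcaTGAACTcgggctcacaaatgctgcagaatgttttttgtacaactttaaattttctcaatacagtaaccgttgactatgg
Each of the 4 stretches ended between 83 and 161 bases before the RefSeq start of its gene.

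**Figure D3:**
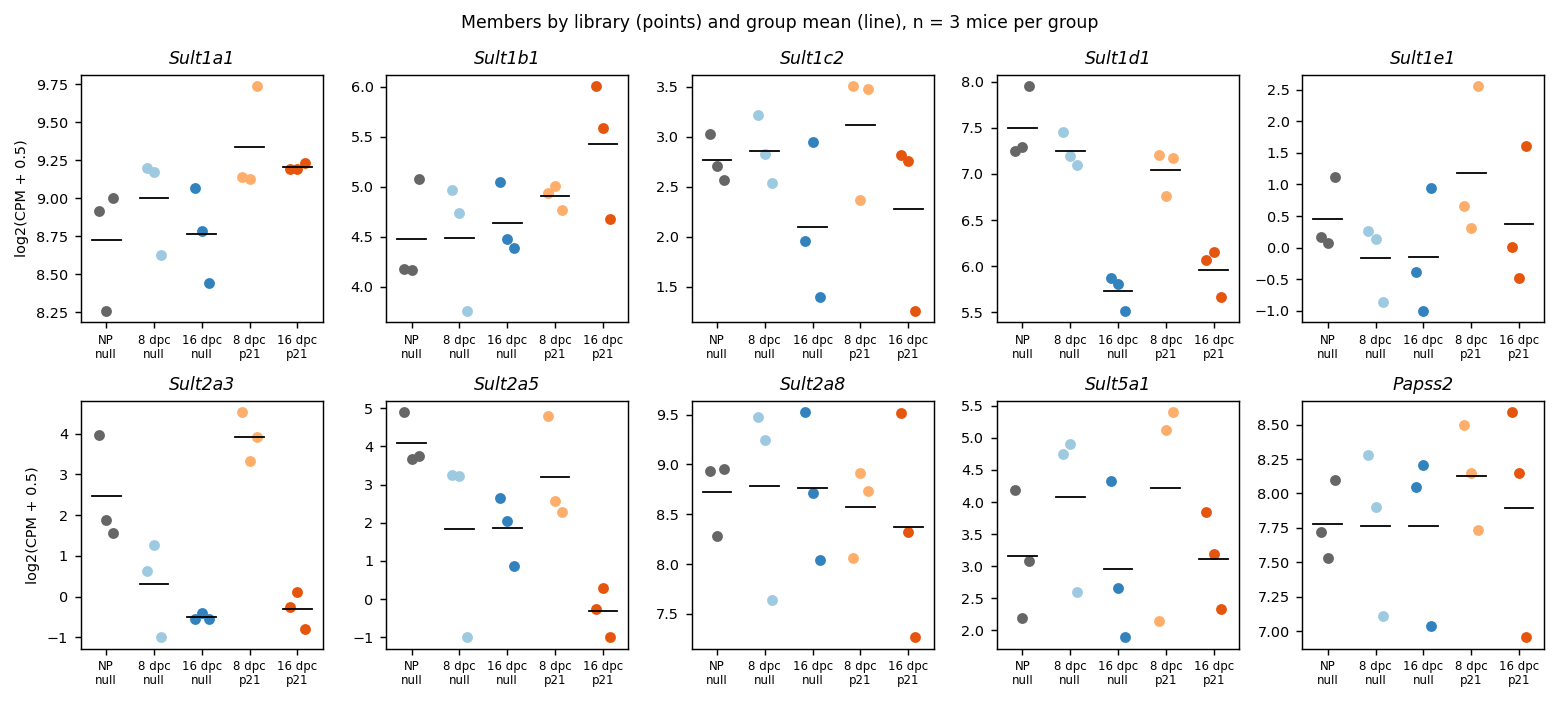
Level of each member in each library (vertical axis, log2 of CPM plus 0.5), with the 5 groups along the horizontal axis, 3 mice per group and a line at the group mean. Sult1d1 is low in all 6 libraries at 16 dpc, Sult2a3 is low there too, Sult2a5 is near the bottom of its range in AAV8-p21 livers at 16 dpc, and the other 7 members show no stage that stands apart.

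The other 7 members did not pass in any of the comparisons by edgeR. limma voom with sample weights called Sult1a1 and Sult1b1 from NP to 16 dpc with AAV8-p21 (adjusted p = 0.0398 and 0.00969). Sult1a1 (minus strand of chr7:126672865-126676432) measured 483, 306 and 512 CPM in NP livers and 535, 441 and 348 CPM at 16 dpc with AAV8-null, a log2 fold change of 0.03 ± 0.25 (adjusted p = 0.970). Its model overlaps Sgf29 on the opposite strand, and whether the counting used the strand is not given in the sources used here. Sult2a8 (chr7:14410686-14446769) varied more within groups than between them, with 714, 607 and 199 CPM in AAV8-null livers at 8 dpc and 732, 319 and 153 CPM in AAV8-p21 livers at 16 dpc. Its log2 fold change from NP to 16 dpc with AAV8-null was 0.13 ± 0.54 (adjusted p = 0.926).

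Papss2 (plus strand of chr19:32595790-32667187) measured 210, 184 and 273 CPM in NP livers and 264, 295 and 131 CPM at 16 dpc with AAV8-null, a log2 fold change of 0.05 ± 0.40 (adjusted p = 0.966). Its lowest library was 4 of the AAV8-p21 mice at 16 dpc, with 124 CPM, and its highest was 1 of the same group, with 385 CPM. Sult1b1 ranged from 13.004 to 63.97 CPM, and its log2 fold change from NP to 16 dpc with AAV8-p21 was 1.002 ± 0.37 (adjusted p = 0.175). Sult1c2 (chr17:53829637-53846339) ranged from 1.89 to 10.9 CPM and Sult5a1, an enzyme without a well-known substrate (chr8:123140192-123158315), from 3.20 to 41.8 CPM. Sult1e1 held between 0 and 77 counts per library, so that its values rest on few counts.

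From NP to 16 dpc with AAV8-null, 2 of 10 members passed and both were lower, where 6.52% of all tested genes passed (2.82% lower). The median log2 fold change of the members was −0.32, against −0.03 over all tested genes. From 8 dpc to 16 dpc with AAV8-null 1 of 10 passed and was lower, where 6.87% of all genes passed (3.71% lower), with medians of −0.46 and 0.00. With AAV8-p21, 2 of 10 passed from 8 dpc to 16 dpc (3.32% of all genes, 1.23% lower), with medians of −0.97 and −0.02, and 3 of 10 from NP to 16 dpc (3.81% of all genes, 1.17% lower), with medians of −0.12 and −0.04. NP and 8 dpc AAV8-null livers gave no call for any member or any of the 12172 genes by edgeR (0.00%), although 803 genes had an unadjusted p under 0.05, Sult2a3 among them. Without library 3 of AAV8-null at 8 dpc edgeR called 92 genes in this comparison, and without any other single library between 0 and 2. DESeq2 called 66 genes there and limma voom with sample weights 1850 genes, and neither called a member. The comparisons with NP share the same 3 NP libraries, so they are not independent of each other. These NP libraries are AAV8-null, so that from NP to 16 dpc with AAV8-p21 virus and stage changed at once.

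Counts of members whose groups of 3 did not overlap are given beside the same share of all tested genes. From NP to 16 dpc with AAV8-null the 3 members Sult1d1, Sult2a3 and Sult2a5 were lower without overlap (24.6% of all genes did not overlap). From NP to 8 dpc Sult2a3 and Sult2a5 were lower without overlap (10.2%), from 8 dpc to 16 dpc with AAV8-null Sult1d1 alone (25.4%), and from 8 dpc to 16 dpc with AAV8-p21 the 3 members again (22.9%). From NP to 16 dpc with AAV8-p21 these 3 were lower and Sult1a1 was higher without overlap (20.2%).

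**Figure D4:**
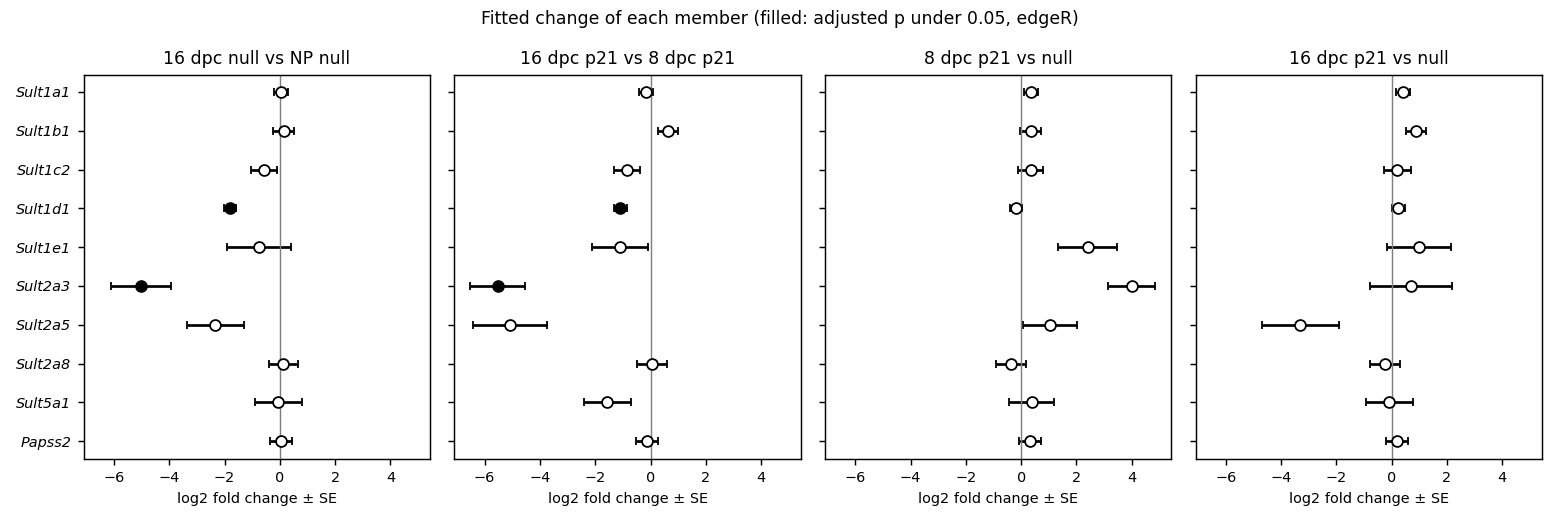
Fitted log2 fold change of each member with its SE (horizontal axis) in 4 comparisons, filled where the adjusted p from edgeR is under 0.05. Sult1d1 and Sult2a3 are filled and left of 0 in both comparisons with 16 dpc in the left panels, and no member is filled in the comparisons of the viruses.

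AAV8-p21 was compared with AAV8-null to ask whether blocking the hepatocyte cell cycle moved these genes. No member passed at 16 dpc, where 0.0739% of all genes did, or at 8 dpc, where 0.0246% did. None passed in the mean of both differences (0.131% of all genes) or in the interaction of virus and stage (0.00%, with 376 genes at an unadjusted p under 0.05). At an unadjusted p under 0.05, edgeR gave Sult1b1 and Sult2a5 at 16 dpc, Sult1e1 and Sult2a3 at 8 dpc, Sult1b1 and Sult2a3 in the mean of both and Sult2a5 in the interaction. Over all 12172 genes 1189, 631 and 1512 did so at 16 dpc, at 8 dpc and in the mean. DESeq2 called 135 genes at 16 dpc, 29 genes at 8 dpc and 0 in the interaction, with 0 members in each. At 16 dpc Sult1a1 measured 585, 584 and 601 CPM with AAV8-p21 and 535, 441 and 348 CPM with AAV8-null, higher without overlap, and Sult2a5 was lower without overlap (13.7% of all genes did not overlap). The log2 fold change of Sult1a1 was 0.42 ± 0.25 (adjusted p = 0.599). At 8 dpc Sult1e1 and Sult2a3 were higher with AAV8-p21 without overlap (5.52% of all genes lay higher without overlap). Sult2a3 had a log2 fold change of 4.005 ± 0.85 there (adjusted p = 0.228) and Sult1e1 of 2.40 ± 1.08 (adjusted p = 0.945). limma voom with sample weights called Sult2a3 at 8 dpc (adjusted p = 0.0277), the single member call between the viruses in any fit. Sult1d1 differed between the viruses by −0.20 ± 0.22 at 8 dpc and 0.24 ± 0.22 at 16 dpc. The clock output gene Dbp did not overlap between the viruses at 16 dpc, with 1.69, 11.4 and 1.33 CPM in AAV8-null livers and 119.9, 81.0 and 51.8 CPM in AAV8-p21 livers, although it did not pass (adjusted p = 0.329). It was as uneven within other groups, with 5.68, 86.3 and 58.04 CPM in NP livers and 0.642, 1.71 and 61.4 CPM in AAV8-p21 livers at 8 dpc, and it lay between 3.43 and 9.10 CPM in AAV8-null livers at 8 dpc. Its log2 fold change from NP to 16 dpc with AAV8-null was −3.37 ± 1.35 (adjusted p = 0.167). The part of this gene in the differences of the members between viruses or stages was not tested.

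The sum of Sult2a3, Sult2a5 and Sult2a8, of which Sult2a8 held most, lay between 153 and 743 CPM over the 15 libraries. On the log2 scale the summed CPM differed by −0.03 from NP to 16 dpc with AAV8-null, −0.40 between the viruses at 16 dpc and −0.12 at 8 dpc (exact two-sided permutation p = 1, 0.7 and 0.9, where 0.1 is the smallest p that 3 mice against 3 allow, so that no difference could pass). From NP to 8 dpc it was 0.00 on this scale (exact permutation p = 1). Summed over all 8 Sult2a genes the differences were −0.50 from NP to 16 dpc with AAV8-null (exact permutation p = 0.4), −0.72 from NP to 8 dpc (exact permutation p = 0.6), −0.15 between the viruses at 16 dpc (exact permutation p = 0.9) and 0.76 between the viruses at 8 dpc (exact permutation p = 0.3). Both differences at 8 dpc lean on library 3 of AAV8-null, with 209 CPM, against 852 and 804 CPM in libraries 1 and 2. The sum of all 8 genes was not compared with a library left out.

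Within the cluster, the ratios of Sult2a4, Sult2a5 and Sult2a6 to Sult2a2 were low or at 0 together in the same 6 libraries, which include all 3 of AAV8-p21 at 16 dpc. For Sult2a6 the level split the same way, whereas the level of Sult2a5 in libraries 2 and 3 of AAV8-p21 at 8 dpc (5.42 and 4.34 CPM) was above that in libraries 2 and 3 of AAV8-null at 16 dpc (3.67 and 1.33 CPM). Sult2a2 was highest in the former 2 libraries, with 199 and 219 CPM. This pattern was chosen after the values were seen, and it is given per library with no test. Against 100 counts of Sult2a2 in the same library, Sult2a6 stood between 9.64 and 15.5 counts in 9 libraries. In the other 6, which were library 3 of AAV8-null at 8 dpc, libraries 2 and 3 of AAV8-p21 at 8 dpc and all 3 of AAV8-p21 at 16 dpc, it stood between 0 and 0.279. Library 2 of AAV8-p21 at 8 dpc held 0 counts of Sult2a6 beside 3489 counts of Sult2a2, which allows a ratio of up to 0.0860 per 100, and library 1 of the same group held 388 counts beside 2684. Sult2a5 stood between 8.43 and 20.6 per 100 in the same 9 libraries and between 0 and 2.72 in the same 6. For Sult2a4 the ranges were 5.32 to 8.99 and 0.279 to 1.56. The 1.56 is 1 count beside 64 of Sult2a2 in library 3 of AAV8-null at 8 dpc, too few to place that library by Sult2a4. Library 3 of AAV8-null at 8 dpc held 64 counts of Sult2a2, so that its 0 counts of Sult2a5 and Sult2a6 allow ratios of up to 4.69 per 100.

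The ratio of Sult2a3 to Sult2a2 was low in all livers at 16 dpc, on either side of this split. Per 100 counts of Sult2a2 it stood between 3.11 and 8.32 in NP livers and between 4.82 and 17.1 in AAV8-p21 livers at 8 dpc, but between 0.279 and 1.12 in the 6 livers at 16 dpc. In AAV8-null livers at 8 dpc it stood at 1.52, 2.47 and 0. Within AAV8-p21 livers at 8 dpc it was lower in the libraries where the ratio of Sult2a5 was low, with 4.82 and 6.68 against 17.1. In AAV8-null livers at 8 dpc this cannot be told, as the 0 beside 64 counts of Sult2a2 allows up to 4.69 per 100. The libraries with low ratios of Sult2a5, Sult2a4 and Sult2a6 to Sult2a2 fall unevenly over the groups, with 5 of 6 AAV8-p21 libraries and 1 of 9 AAV8-null libraries. The differences of Sult2a5 that involve AAV8-p21 at 16 dpc and this split of the ratios cannot be told apart. Leaving out library 3 of AAV8-null and library 1 of AAV8-p21 at 8 dpc, the fall of Sult2a5 from NP to 16 dpc with AAV8-null passed (adjusted p = 0.0253). That fit was chosen after the values were seen, and it was the only 1 of 23 alternatives in which this fall passed, with 0 of the 15 fits that left out 1 library.

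**Figure D5:**
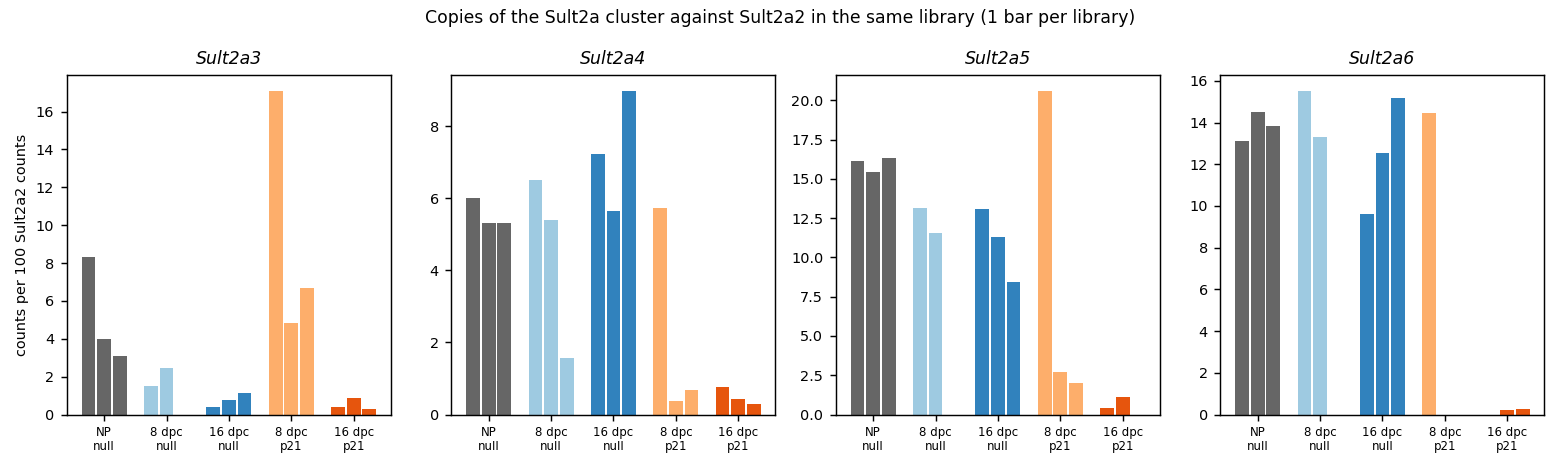
Counts of Sult2a3, Sult2a4, Sult2a5 and Sult2a6 per 100 counts of Sult2a2 in the same library (vertical axes), 1 bar per library and 3 libraries per group. Sult2a6 stands between 9.64 and 15.5 in 9 libraries and at most at 0.279 in the other 6, and Sult2a4 and Sult2a5 are low in the same 6. The Sult2a4 bar of library 3 of AAV8-null at 8 dpc rests on 1 count.

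Of the 12 other cytosolic sulfotransferase genes, 7 were tested. From NP to 16 dpc with AAV8-null Sult3a1 and Sult3a2 rose and Sult2a7 fell. Sult3a1, an amine sulfotransferase, measured 128, 107 and 76.8 CPM in NP livers and 591, 328 and 509 CPM at 16 dpc, a log2 fold change of 2.19 ± 0.39 (adjusted p = 0.00383). Its neighbour Sult3a2 measured 22.4, 5.12 and 4.41 CPM in NP livers and 254, 155 and 154 CPM at 16 dpc, a log2 fold change of 4.14 ± 0.73 (adjusted p = 0.00380). All libraries of both genes at 16 dpc were above the NP libraries. Sult2a7 measured 7.62, 2.01 and 5.52 CPM in NP livers and 0.713, 0 and 0.178 CPM at 16 dpc, with −4.07 ± 0.98 (adjusted p = 0.0229). Sult3a1 and Sult3a2 were also called higher and Sult2a7 lower from 8 dpc to 16 dpc with AAV8-null. From 8 dpc to 16 dpc with AAV8-p21 Sult3a2 rose by 4.03 ± 0.73 on the log2 scale (adjusted p = 0.00730), Sult3a1 by 1.497 ± 0.38 (adjusted p = 0.0453), and Sult2a7 had −4.66 ± 0.94 (adjusted p = 0.0133). In AAV8-p21 livers at 16 dpc against NP livers, Sult3a2 was higher by 3.20 ± 0.70 on the log2 scale (adjusted p = 0.0201), Sult2a7 had −4.002 ± 0.95 (adjusted p = 0.0293) and Sult3a1 did not pass, with 1.402 ± 0.38 (adjusted p = 0.0548). Some sulfotransferase RNAs were therefore lower at 16 dpc and others higher. Sult1c1, Sult6b1 and Sult6b2 had 0 counts in all 15 libraries.

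The genes around the reaction were counted by list, against the 6.52% of all genes that passed from NP to 16 dpc with AAV8-null. Of 8 tested genes of PAPS supply, sulfate transport and PAP removal, Slc35b3, a PAPS transporter of the Golgi, rose from NP to 16 dpc with AAV8-null by 0.75 ± 0.21 on the log2 scale (adjusted p = 0.0476), and no other passed in any comparison by edgeR. DESeq2 also called the sulfate transporter Slc26a1. Of 10 tested genes of the supply of cysteine and its breakdown, in part to sulfate, Cth (cystathionine gamma-lyase) fell over the same interval, with −1.54 ± 0.26 (adjusted p = 0.00269). Cth and Ethe1, a mitochondrial persulfide dioxygenase, fell from 8 dpc to 16 dpc with AAV8-null (−1.28 ± 0.26 and −1.87 ± 0.48, adjusted p = 0.00989 and 0.0317) and with AAV8-p21 (−1.19 ± 0.26 and −2.05 ± 0.48, adjusted p = 0.0195 and 0.0304). Of 12 tested sulfatases and activators, which remove sulfate groups, Galns and Arsg rose from NP to 16 dpc with AAV8-null by 1.10 ± 0.23 and 1.97 ± 0.50 on the log2 scale (adjusted p = 0.0124 and 0.0295). By edgeR none of 16 tested nuclear receptors and factors and none of 10 clock output genes passed in any comparison, and 8 and 10 of them had an unadjusted p under 0.05 in at least 1 comparison. DESeq2 called Esr1, Nr1i3 and Stat5b of the former and Arntl of the latter in at least 1 comparison.

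Genes known to differ between the sexes moved in both directions from NP to 16 dpc with AAV8-null, with 1 of 9 female-high genes higher and 2 lower, and 1 of 8 male-high genes higher and 1 lower. Markers of other cells moved with the stage too. From NP to 16 dpc with AAV8-null 3 of 3 tested neutrophil markers rose, and their sum lay between 0.548 and 1.59 CPM in NP livers and between 5.17 and 28.4 CPM at 16 dpc. Of 6 hepatocyte markers 2 rose and 1 fell, of 6 pericentral markers 1 rose and 1 fell, of 6 periportal markers 1 rose and 2 fell, and of 6 stellate and fibroblast markers 1 fell. No tested marker of bile duct, Kupffer cell and macrophage, endothelial cell, lymphocyte, pancreas, adipocyte or intestine passed in that comparison by edgeR or DESeq2, and 4 of these 24 had an unadjusted p under 0.05 by edgeR. From 8 dpc to 16 dpc with AAV8-null, where Sult1d1 was also called, 2 of 6 endothelial markers and 1 of 6 stellate and fibroblast markers rose. These were Pecam1, Clec4g and Dcn, with 1.16 ± 0.29, 0.80 ± 0.18 and 1.04 ± 0.22 on the log2 scale (adjusted p = 0.0318, 0.0206 and 0.0144). DESeq2 also called Stab2 and Cela1 there. In the same comparison 2 of 6 hepatocyte markers and 1 of 6 pericentral markers rose by edgeR. Of 6 periportal markers 1 rose and 2 fell. The part of these markers in the changes of the members was not tested.

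The genes whose levels were most like those of a called member over the 15 libraries are given as a description. For Sult1d1 these were Pex7, Ddah1 and Dpp4, with Pearson's r of 0.958, 0.941 and 0.937 on log2 CPM, and r fell to 0.755, 0.305 and 0.530 once group means were removed. For Sult2a3 they were Kcnj10, Il15 and Sp110, with 0.883, 0.880 and 0.879, and 0.618, 0.788 and 0.620 without group means. For Sult2a5 they were Sult2a4, Car14 and Sult2a6, with 0.944, 0.844 and 0.835, and 0.943, 0.730 and 0.897 without group means. The libraries share depth and normalisation, and 79 of the 86-base windows of Sult2a5 also occur in Sult2a4. Among the members themselves, Sult1b1 and Sult2a8 had r = 0.859, Sult1b1 and Papss2 0.839, Sult2a8 and Sult5a1 0.816, Sult2a8 and Papss2 0.783 and Sult2a3 and Sult2a5 0.780 without group means.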

How the data were processed

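Reads of TruSeq stranded mRNA libraries were trimmed with cutadapt 1.14, aligned to mm10 with HISAT2 2.1.0 and counted with HTSeq 0.12.4 by the authors. The deposited values are their raw counts of uniquely mapped reads for 21702 protein-coding genes, without normalisation. The strand setting is not given in the sources used here. Groups came from the labels, and laser-captured samples were not analysed here.

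The main test was edgeR 4.0.16 (R 4.3.3), quasi-likelihood, TMM, filterByExpr with a minimum count of 10, a single model with the 5 groups over 15 libraries, and p-values adjusted by Benjamini-Hochberg over 12172 genes. A call is an adjusted p under 0.05, and SE is the log2 fold change divided by the root of F. Summed levels were compared by exact permutation on log2(CPM + 0.5). TMM factors lay between 0.682 and 1.25. In simulated counts of 12015 genes for 16 dpc against NP, edgeR recovered 22% of log2 changes of 1 and 82% of changes of 2. Gene models and transcripts are from GENCODE M21 (GRCm38), in which 21588 of 21702 genes were found, and promoters from RefSeq. Coding sequences were aligned with Biopython 1.88.

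The members, lists and motifs were chosen with earlier results of these data known. Named genes are all members, list genes that passed and the 3 genes most like each called member. Of genes that passed, those known to differ between the sexes and most cell type markers were only counted. Dbp, Cdkn1a, Papss1, Sult2a1, Sult2a2, Sult2a4, Sult2a6, Sult4a1 and list genes called by DESeq2 alone lie outside this rule and were chosen with their values seen. Alternatives were DESeq2 1.42.0 size factors, no filter, 10 counts in every library, DESeq2's Wald test, limma 3.58.1 voom with sample weights, compared groups alone, a log2 fold change threshold of 1, the replicate block and each library left out. Figures were drawn with matplotlib 3.10.9.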

Additional observations from a re-analysis of the deposited data

How the results depend on the processing

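With at least 10 counts in every library, which leaves Sult2a3 and Sult2a5 untested, 1 member in place of 2 passed from NP to 16 dpc with AAV8-null, 1 in place of 2 from 8 dpc to 16 dpc with AAV8-p21 and 1 in place of 3 from NP to 16 dpc with AAV8-p21. limma voom with sample weights called 1 member from NP to 16 dpc with AAV8-null and 1 between the viruses at 8 dpc, in place of 0, and the cause was not tested. Voom called 3 from NP to 16 dpc with AAV8-p21, as edgeR did, of which only Sult1d1 was shared. Over all genes edgeR, DESeq2 and voom called 794, 1207 and 1602 from NP to 16 dpc with AAV8-null, 836, 1358 and 1707 from 8 dpc to 16 dpc, 404, 797 and 1817 with AAV8-p21, and 464, 804 and 2317 from NP to 16 dpc with AAV8-p21. Between the viruses they called 9, 135 and 117 at 16 dpc, 3, 29 and 105 at 8 dpc and 16, 206 and 257 for the mean. Without 1 library edgeR called 373 to 902 genes from NP to 16 dpc and 258 to 1279 from 8 dpc to 16 dpc with AAV8-null, 159 to 517 and 200 to 514 from 8 dpc and from NP to 16 dpc with AAV8-p21, 3 to 35 between the viruses at 16 dpc, 2 to 38 at 8 dpc and 5 to 52 for the mean. Leaving out 1 library at a time gave 1 to 2 members from NP to 16 dpc with AAV8-null, 1 to 3 from 8 dpc to 16 dpc with AAV8-p21 and 1 to 3 from NP to 16 dpc with AAV8-p21. It gave 1 to 1 from 8 dpc to 16 dpc with AAV8-null and 0 to 0 in the other 5 results. The sum of the 3 Sult2a members turned sign from NP to 8 dpc with DESeq2 size factors (0.0039, log2) and between the viruses at 8 dpc over all Sult2a genes (0.76). Without 1 library the sum ranged from −0.42 to 0.33 from NP to 16 dpc with AAV8-null, from −0.35 to 0.58 from NP to 8 dpc, from −0.97 to 0.15 between the viruses at 16 dpc and from −0.70 to 0.23 at 8 dpc. Of 2028 values of single members under the alternatives, 1872 kept direction and side of the threshold, 19 lost a call, 11 gained one, 126 without a call turned sign, and 0 with a call turned sign. The falls of Sult1d1 from NP and from 8 dpc to 16 dpc with AAV8-null were called in 24 of 24 alternatives each. The replicate block, over the 12 libraries whose number is given by table and labels, called 2, 0, 1 and 0 members in the 4 comparisons it allows (NP to 16 dpc, NP to 8 dpc, 8 dpc to 16 dpc, and the viruses at 8 dpc), the same as without the block (2, 0, 1 and 0). Correlations between the deviations of same-numbered libraries spanned −0.58 to 0.47. In each pair of AAV8-null groups their mean was above that of libraries with other numbers. For NP paired with 16 dpc it was 0.25 against −0.13. In each pair that included AAV8-p21 at 8 dpc the same-number mean was the lower one. For NP in such a pair it was −0.16 against 0.09. With means on both sides, these values do not settle whether the number is a pairing. The fits without the block over 12 libraries and without library 3 of AAV8-null and library 1 of AAV8-p21 at 8 dpc were chosen after seeing the data. Depth limits Sult1e1, Sult2a3 and Sult2a5, which had 3 or fewer counts in 4, 5 and 2 libraries, where the other 7 members had none so low.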

Other observations

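Sult4a1, the sulfotransferase gene typical of brain, did not pass the filter, but library 1 of AAV8-p21 at 16 dpc held 129 counts of it and library 3 of that group 15 counts. In AAV8-null livers at 16 dpc the 3 libraries held 10, 4 and 0 counts, and the other 10 libraries held 0 or 1.

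Sult2a1, the copy with the highest level per kilobase of exon in NP livers, stood at 244, 318 and 235 counts per 100 counts of Sult2a2 in NP livers, at 49.3, 66.4 and 43.8 in AAV8-null livers at 8 dpc and at 183, 149 and 132 in AAV8-p21 livers at 8 dpc. At 16 dpc it stood between 322 and 690 with AAV8-null and between 257 and 369 with AAV8-p21. These values were picked after they were seen, and 140 of the 86-base windows of Sult2a1 are shared with Sult2a2.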
